A study of Homo sapiens with 4 samples.

Results

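The HOXC cluster on human chromosome 12 was followed in genome-wide maps of the histone variant macroH2A1 in IMR90 cells, a line of primary fibroblasts from human fetal lung. All 9 of its protein-coding members were taken by name, HOXC13, HOXC12, HOXC11, HOXC10, HOXC9, HOXC8, HOXC6, HOXC5 and HOXC4, each over its annotated span in hg19, out of 19517 measured protein-coding genes. Together they occupied 117 kb (12:54332615-54449814, hg19), and 100 kb on either side was read as flank. The series held 2 macroH2A1 ChIP replicates, described as biological replicates, and 2 corresponding inputs, all from cells grown in serum with no treatment named. The inputs entered only as the denominator of the authors' ratio. For each ChIP replicate the authors divided the genome into segments and gave each one a log ratio (ChIP over input) and a −log10 p. The log ratio was read here as log2, a base inferred from the values. Segments with a ratio over 0 on the log2 scale and a −log10 p of 2 or more count here as enriched. A gene's covered share is the percent of its bases found in such segments in replicate 1 and in replicate 2 alike. Read depth is unknown, so counting error could not be given, and the error of each value is the spread between the 2 replicates. With 1 group of 2 replicates no test between conditions could be made. Expression was not measured in this series, so the fibroblast identity of the cells could not be checked from it.

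MacroH2A1 replaces histone H2A in some nucleosomes and adds a globular macro domain to them. It is known for broad domains over the inactive X chromosome and over silent developmental genes. HOX genes encode homeodomain transcription factors that give cells their position along the body axis. Their order along the chromosome follows the order in which they are used from head to tail, so that HOXC4 and HOXC5 act nearest the head and HOXC11, HOXC12 and HOXC13 nearest the tail. Fibroblasts keep part of this positional pattern in culture. All 9 HOXC genes are transcribed in the same direction, with HOXC13 first and HOXC4 last in coordinate order.

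The cluster also encodes microRNAs, and the 2 named ones lay on different sides of the border that replicate 1 placed near HOXC5. MIR196A2 (12:54385522-54385631), between HOXC10 and HOXC9, gives miR-196a, a known repressor of HOX messages. MIR615 (12:54427734-54427829) lies inside HOXC5. Their mature sequences are shown with miR-196b of the HOXA cluster, which has the same seed as miR-196a. Sequences are from RefSeq (GRCh38.p14), written 5′ to 3′, with the seed, bases 2 to 8, in capitals.
miR-196a-5p: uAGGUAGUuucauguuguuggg
miR-615-3p: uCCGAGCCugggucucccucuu
miR-615-5p: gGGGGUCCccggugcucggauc
miR-196b-5p: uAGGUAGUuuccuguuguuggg
MIR196A2 had log2 ratios of 0.40 and 0.83 in replicates 1 and 2 and was enriched in both. MIR615 had -0.14 and 0.83, and was enriched in replicate 2 alone.

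RefSeq gives HOXC4 and HOXC5 a shared upstream start inside the enriched domain, so the promoter of these 2 members is shown beside that of FLJ12825, the first noncoding gene beyond the cluster. Of the 9 members, 2 were matched in the promoter table. The promoters cover 250 bases before to 50 after the start (RefSeq, GRCh38.p14), and their hg19 positions come from an exact match to that genome. They are written 5′ to 3′ with CpG dinucleotides in capitals.
HOXC4 and HOXC5, chr12:54410422-54410721, plus strand: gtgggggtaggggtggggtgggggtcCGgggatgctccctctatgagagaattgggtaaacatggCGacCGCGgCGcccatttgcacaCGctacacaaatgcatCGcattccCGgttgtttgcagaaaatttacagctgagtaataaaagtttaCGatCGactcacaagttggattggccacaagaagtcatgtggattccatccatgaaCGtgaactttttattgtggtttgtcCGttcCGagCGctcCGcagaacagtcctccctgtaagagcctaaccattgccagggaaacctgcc
FLJ12825, chr12:54451788-54452087, plus strand: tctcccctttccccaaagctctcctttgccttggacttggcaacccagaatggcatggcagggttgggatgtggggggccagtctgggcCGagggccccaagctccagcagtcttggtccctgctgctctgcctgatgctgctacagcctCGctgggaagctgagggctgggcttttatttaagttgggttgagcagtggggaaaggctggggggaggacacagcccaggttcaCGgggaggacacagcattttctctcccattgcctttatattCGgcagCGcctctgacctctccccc
The HOXC4 and HOXC5 promoter holds 15 CpG, a number reached or passed by 48.9% of the 35116 promoters in the table, and it lay at 0.40 and 0.83 in replicates 1 and 2. The FLJ12825 promoter holds 5 CpG, reached or passed by 70.4% of promoters, and it lay at -0.14 and 0.01.

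MacroH2A1 covered most of the HOXC cluster at a modest level. Over the whole 117 kb the log2 ratio was 0.30 in replicate 1 and 0.48 in replicate 2, a mean of 0.39 ± 0.13 (SD, n = 2). Enriched segments held 80.3% of its bases in replicate 1 and 87.7% in replicate 2, and 94.2 kb, or 80.3%, in both. Of the 9 members, 7 were covered over at least 50% of their span, and each of the 7 was covered to 100%. Among all measured protein-coding genes 19.2% were covered over at least 50% and 12.3% to 100%. The HOXC genes are not separate observations, because the values of all 9 come from 2 segments in replicate 1 and 3 in replicate 2. With a −log10 p of at least 5 the count of covered members was 4, and with a log2 ratio above 0.5 it was 0. The share of all protein-coding genes in these stricter settings is not given here.

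**Figure D1:**
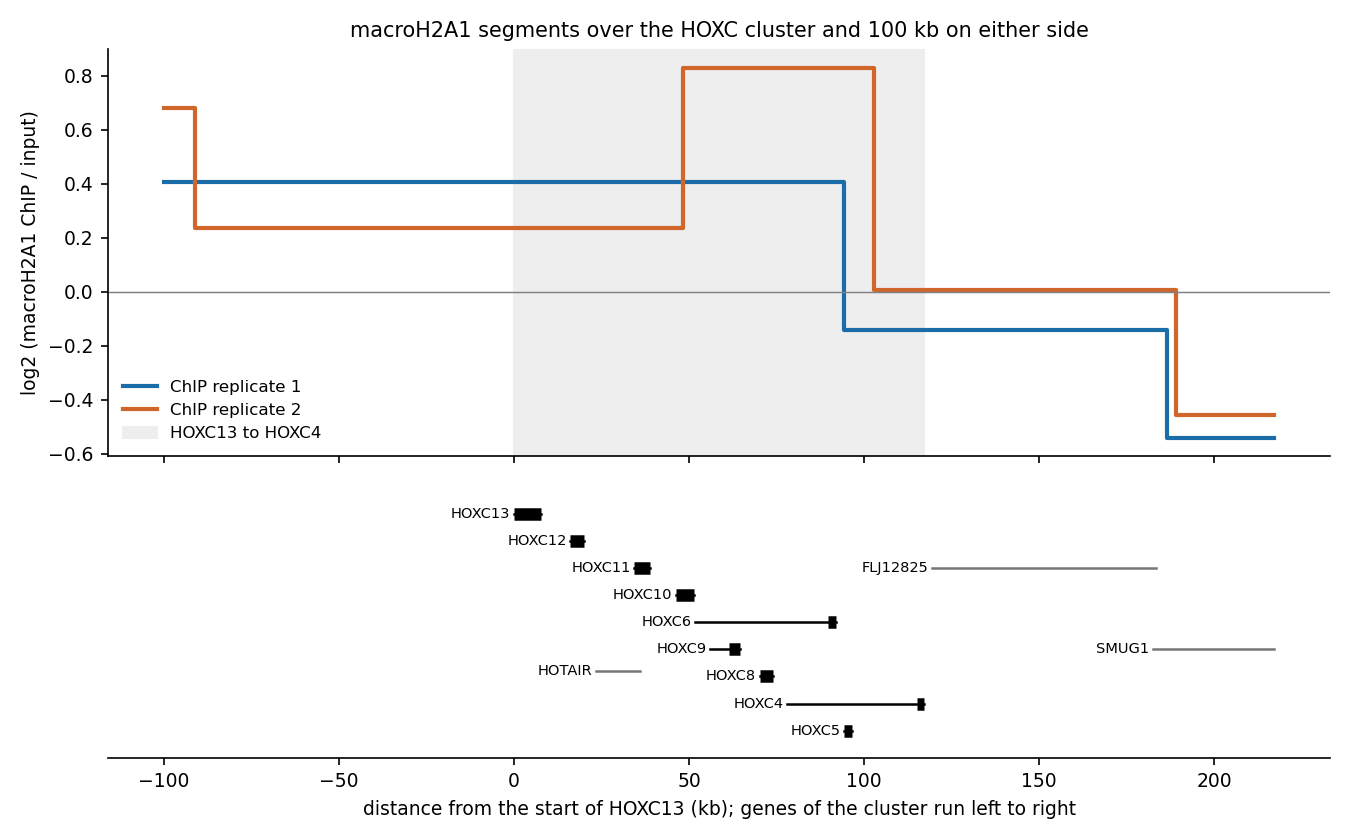
Upper panel, log2 ratio of macroH2A1 ChIP over input of the authors' segments in each replicate against distance from the start of HOXC13 in kb, with the cluster shaded; lower panel, gene spans as lines and the canonical transcripts of the 9 members as thick bars. Replicate 1 has 1 level of 0.40 up to the HOXC5 start, replicate 2 has 0.24 and then 0.83, and both lie at or below 0.01 at the HOXC4 end.

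In replicate 1 a single segment of 244 kb (12:54182422-54426782) with a log2 ratio of 0.40 ran from beyond the HOXC13 flank to the start of HOXC5. This is a ChIP to input ratio of 1.32, where assayed bases averaged 1.01, and its −log10 p was 43.1. It was longer than 96.3% of the segments of that replicate. Its ratio was low for an enriched segment, above only 14.8% of them. In replicate 2 the same stretch was divided. A segment of 139 kb (12:54241511-54380934) had a log2 ratio of 0.24 with a −log10 p of 3.88, above 2.89% of enriched segments, and a segment of 54.4 kb (12:54380935-54435351) had 0.83 with a −log10 p of 14.8, above 48.0% of them. The median enriched segment had a log2 ratio of 0.82 in replicate 1 and 0.85 in replicate 2.

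The genes nearest the tail end of the axis, HOXC13, HOXC12 and HOXC11, shared a single pair of values. HOXC13 (12:54332615-54340328), a regulator of hair and nail keratin genes, lay at 0.40 in replicate 1 and 0.24 in replicate 2, a mean of 0.32 ± 0.12 (SD, n = 2). HOXC12 (12:54348687-54352740) and HOXC11 (12:54366910-54371427), HOX genes of the hindlimb and tail levels, had the same 0.40 and 0.24. The 3 genes were covered to 100%, and their mean exceeded that of 81.8% of protein-coding genes. The noncoding genes among them had the same values. HOTAIR (12:54356092-54368740), an antisense RNA that runs from the start of HOXC11 towards HOXC12 and is known for its reported link to Polycomb repression, lay at 0.40 and 0.24. HOXC13-AS, antisense to the start of HOXC13, also lay at 0.40 and 0.24. So did HOXC-AS3, which is antisense to the start of HOXC10.

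HOXC10, a gene of the lumbar and hindlimb level, contained the step of replicate 2. Over its span (12:54378849-54384063) the log2 ratio was 0.40 in replicate 1 and 0.59 in replicate 2, a mean of 0.50 ± 0.13 (SD, n = 2). At its start the value in replicate 2 was 0.24. The border lay in its intron, 2005 bases after the start of its canonical transcript, and the log2 ratio was 0.59 higher beyond it. Replicate 1 had no border in HOXC10, and its nearest one was 45.8 kb away. The level change inside HOXC10 was therefore seen in 1 of 2 replicates.

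The central genes HOXC9, HOXC8 and HOXC6, which act at trunk and forelimb levels, had the highest values of the cluster. HOXC9 (12:54388679-54397121) lay at 0.40 in replicate 1 and 0.83 in replicate 2, a mean of 0.62 ± 0.30 (SD, n = 2). HOXC8 (12:54402769-54406553) and HOXC6 (12:54384408-54424607) had the same values, and all 3 were covered to 100%. Their mean lay above that of 89.6% of protein-coding genes. Set against HOXC13, HOXC12 and HOXC11, the central genes were 0.59 higher in replicate 2 and equal in replicate 1, so an order of levels within the cluster was not shared by the replicates. HOXC-AS1 and HOXC-AS2, antisense RNAs beside HOXC9, also lay at 0.40 and 0.83. The annotated span of HOXC6 overlaps HOXC9 by 8.44 kb, HOXC8 by 3.79 kb and HOXC4 by 13.9 kb, and its canonical transcript (12:54422224-54424607) covers only the last part, with the same values.

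**Figure D2:**
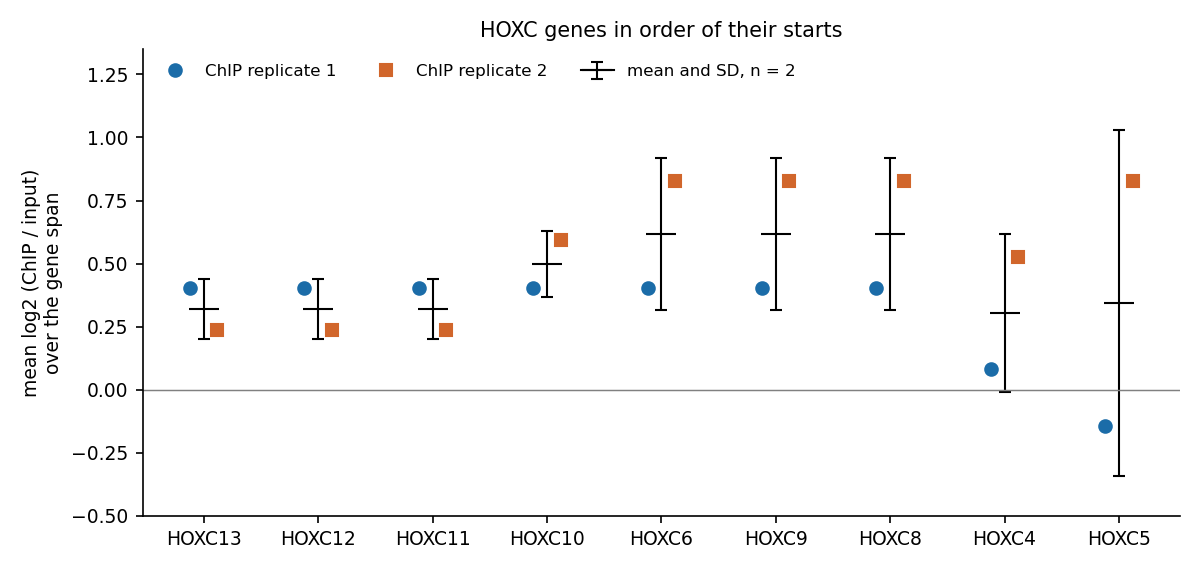
Mean log2 ratio of macroH2A1 ChIP over input across the span of each HOXC gene, with replicate 1 as circles, replicate 2 as squares and the mean with its SD (n = 2) in black. HOXC13, HOXC12 and HOXC11 share 0.40 and 0.24, HOXC6, HOXC9 and HOXC8 share 0.40 and 0.83, and HOXC5 has values on either side of 0.

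HOXC5 and HOXC4, the genes used nearest the head, lay at the edge of the domain. HOXC5 (12:54426834-54429145) had a log2 ratio of -0.14 in replicate 1 and 0.83 in replicate 2, a mean of 0.34 ± 0.69 (SD, n = 2). Its enriched share was 0 in replicate 1, against 100% in replicate 2, because replicate 1 placed its border 51 bases before the HOXC5 start and replicate 2 placed its own 8.57 kb further on. The difference between replicates, 0.97, was larger than that of 95.4% of protein-coding genes, whose median difference was 0.23 in size. No level can be given for HOXC5 beyond that spread.

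HOXC4 depended on which transcript was read. Over its annotated span (12:54410715-54449814) it lay at 0.08 in replicate 1 and 0.53 in replicate 2, a mean of 0.30 ± 0.31 (SD, n = 2), and it was covered to 41.1% in both replicates together. That span starts at an upstream promoter inside the enriched domain. The canonical transcript (12:54447619-54449814), which holds the coding exons, begins 36.9 kb after it. There the log2 ratio was -0.14 in replicate 1 and 0.01 in replicate 2, a mean of -0.07 ± 0.11 (SD, n = 2), and neither replicate was enriched. HOXC4 by its canonical transcript was the only one of the 9 members without an enriched base in either replicate.

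Among all protein-coding genes the HOXC genes stood in the upper part of the distribution but not at its top. In replicate 1 the members lay above 70.9% to 85.3% of genes, and in replicate 2 above 78.0% to 92.1%. Their median log2 ratio was 0.40 and 0.59 in replicates 1 and 2, and that of all protein-coding genes was -0.88 and -0.75. A log2 ratio above 0 in both replicates was found for 8 of the 9 members and for 22.8% of all genes. In windows of the same length tiled along the autosomes, the cluster mean lay above 77.7% of 22638 windows in replicate 1 and above 84.0% in replicate 2. Of these windows 15.5% were covered at least as much as the cluster.

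**Figure D3:**
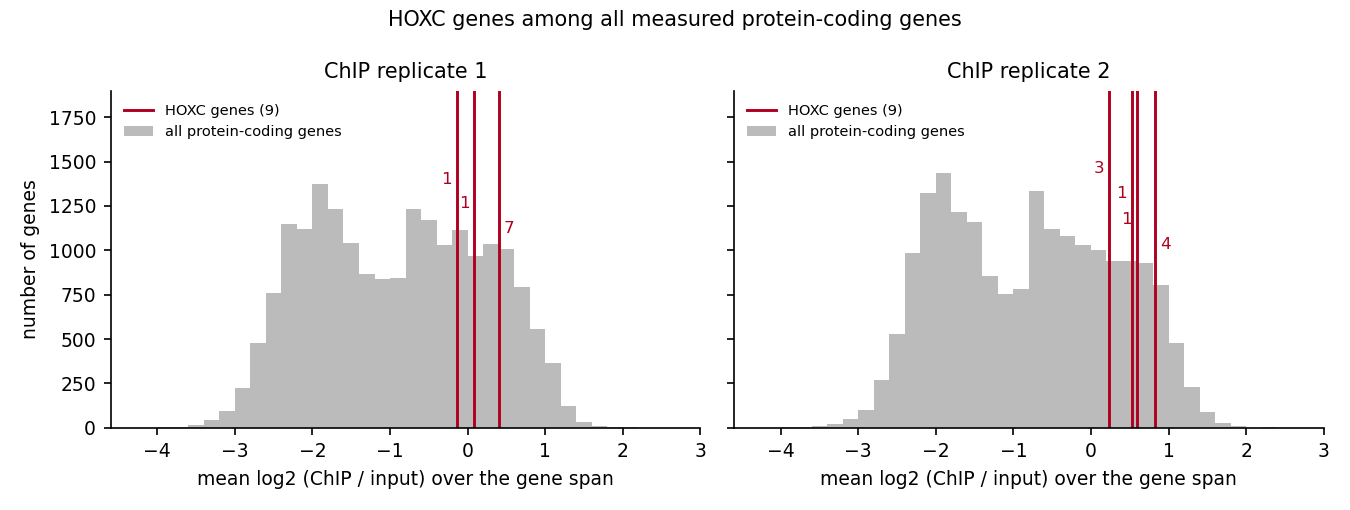
Number of protein-coding genes (grey bars, bins of 0.2) by mean log2 ratio over the gene span in each replicate, with red lines at the values of the 9 HOXC genes and the number of genes at each value. The HOXC genes lie on the right side of both distributions, 7 of them at 0.40 in replicate 1 and 4 at 0.83 in replicate 2.

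The flanks differed from each other. The 100 kb beyond HOXC13 was enriched throughout in both replicates, with log2 ratios of 0.40 and 0.28 (mean 0.34 ± 0.09, SD, n = 2), and the 100 kb beyond HOXC4 was not enriched in either, at -0.26 and -0.12 (mean -0.19 ± 0.10). The cluster exceeded the mean of both flanks by 0.23 in replicate 1 and by 0.41 in replicate 2, and the smallest p that an exact two-sided sign-flip test of 2 such differences allows is 0.5. That mean joins a flank at the level of the cluster with a flank below it. On the HOXC4 side, FLJ12825 (12:54452038-54516019) lay at -0.14 and 0.01. SMUG1 (12:54515061-54582792), which encodes a uracil DNA glycosylase and is the only coding gene that reaches into either flank, lay at -0.70 and -0.41 over its whole span.

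The stretch enriched in both replicates ran well past the cluster on the HOXC13 side. It measured 303 kb (12:54123806-54426782), with 209 kb before the start of HOXC13 and 94.2 kb inside the cluster, and it was longer than 97.4% of the 13649 shared domains of the genome. Apart from HOXC genes and a read-through model over them, ENSG00000273049, it overlapped no protein-coding gene. Its far end was its strongest part. Replicate 1 had 0.97 over the first 58.6 kb, and replicate 2 had 1.33 over the first 36.8 kb and 0.68 over the next 81.8 kb. The HOXC genes thus lay in the weaker part of the domain in replicate 1, and in replicate 2 the central HOXC genes exceeded HOXC13, HOXC12 and HOXC11.

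Within the window, the borders that the replicates placed closest together were on the HOXC4 side. The border at which the log2 ratio fell to 0.01 or below was at 54426783 in replicate 1 and at 54435352 in replicate 2, 8.57 kb apart, with steps of 0.55 and 0.82 in size. A second step down, near the far end of that flank, was at 54519180 and 54521893, 2.71 kb apart. Across the genome 49.4% of borders in replicate 1 had one of replicate 2 within 10 kb, and 76.7% of borders in replicate 2 had one of replicate 1 within that distance. The 2 other borders of replicate 2, in HOXC10 and 91.1 kb before HOXC13, lay 45.8 and 59.1 kb from the nearest of replicate 1. Steps in the window ran from 0.40 to 0.82 in size, where the median step between neighbouring segments of the genome was 1.07 in replicate 1 and 1.30 in replicate 2.

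CpG density was lower beyond both ends of the cluster. The macroH2A1 ratio had no step at the HOXC13 end and stepped down towards the HOXC4 end. The cluster is rich in CpG, at 29.1 per kb and 52.6% G or C, against 9.24 per kb and 41.5% in the flank beyond HOXC13 and 14.1 per kb and 49.2% in the flank beyond HOXC4. The flank beyond HOXC13 was covered to 100%. The stretch from HOXC10 to HOXC5 that replicate 2 placed at 0.83 had 29.9 CpG per kb over its first 45.8 kb, enriched in both replicates. Its last 8.57 kb, enriched in replicate 2 alone, had 25.7 per kb. The 83.8 kb after it, enriched in neither replicate, had 15.0 per kb. A link between CpG density and the ratio was not tested. Within 500 bases of the canonical starts CpG density ran from 25 per kb at HOXC6 to 88 per kb at HOXC9. Both genes lie in the same segment of each replicate, so their log2 ratios are equal whatever their CpG density. Segments are far longer than CpG islands, so a short dip at a start would not be seen in these values.

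**Figure D4:**
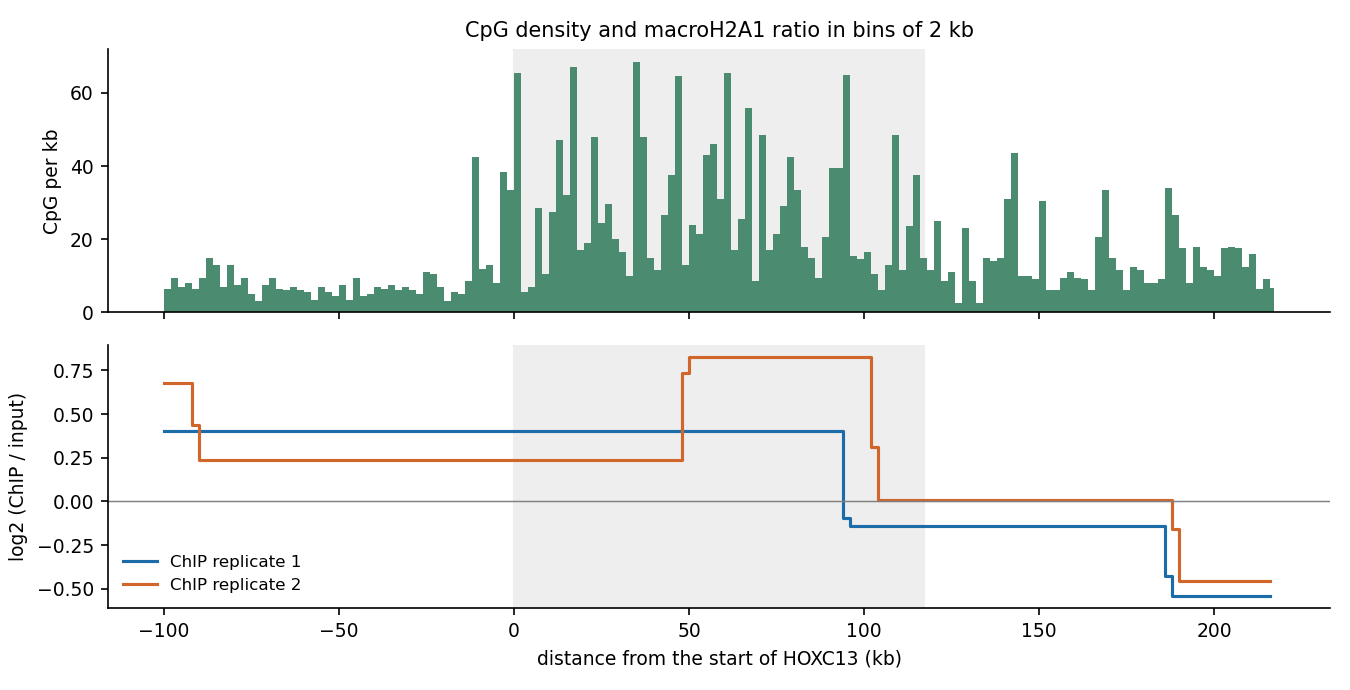
CpG dinucleotides per kb in bins of 2 kb (upper panel) and log2 ratio of ChIP over input of each replicate in the same bins (lower panel) against distance from the start of HOXC13 in kb, with the cluster shaded. CpG density is higher in the cluster (median bin 24 per kb) than beyond HOXC13 (7 per kb) or HOXC4 (11.5 per kb). The log2 ratio passes from the HOXC13 flank into the cluster with no step, and near the HOXC4 end it falls in both replicates.

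HOXC was set beside the HOXD, HOXA and HOXB clusters, and none of the differences was tested, as each cluster gives 2 values. The mean log2 ratio over the cluster was 0.39 ± 0.13 for HOXC, 0.41 ± 0.11 for HOXD, -0.61 ± 0.35 for HOXA and -0.40 ± 0.04 for HOXB (SD, n = 2 each). By mean log2 ratio HOXD was nearest to HOXC. By the share of bases covered in both replicates HOXB was, although HOXB2 to HOXB6 and HOXB8 held no covered base. The HOXB span is longer, at 200 kb. It includes the stretch between the end of HOXB9 (17:46703720) and the start of HOXB13 (17:46802125). The enriched share in replicate 1 was 80.3% for HOXC, 79.4% for HOXD and 61.3% for HOXB. In replicate 2 it was 87.7%, 54.8% and 62.1%. The share covered in both replicates was 80.3% for HOXC, 54.8% for HOXD, 30.0% for HOXA and 61.2% for HOXB. HOXC had 7 of 9 genes covered over at least 50%, HOXD 6 of 9, HOXA 4 of 11 and HOXB 4 of 10. By annotated span HOXC genes had the narrowest range, with means between 0.30 and 0.62. HOXD ran from -0.07 to 0.78, HOXA from -2.43 to 1.10 and HOXB from -2.99 to 1.28. The low end of HOXC was HOXC4, whose canonical transcript lay at -0.07, the low end of HOXD. The lowest segment touching HOXC was at -0.14 in replicate 1 and 0.01 in replicate 2, and that of HOXD at -0.15 and 0.01. HOXA reached -3.36 and -1.49, and HOXB -2.96 and -3.02. In groups 4 and 5 the HOXA and HOXB genes lay below 0 in both replicates. HOXC4 and HOXC5 had means above 0 over their annotated spans. However, HOXC5 lay at -0.14 in replicate 1, and the canonical transcript of HOXC4 had a mean of -0.07. HOXC4 lay at 0.30 ± 0.31, HOXD4 at 0.24 ± 0.32, HOXA4 at -1.14 ± 0.49 and HOXB4 at -2.99 ± 0.04. HOXC5 lay at 0.34 ± 0.69, HOXA5 at -2.21 ± 1.03 and HOXB5 at -2.99 ± 0.04. In the groups nearest the tail the order turned, with HOXC13 at 0.32 ± 0.12, HOXA13 at 1.10 ± 0.18, HOXB13 at 0.86 ± 0.15 and HOXD13 at 0.44 ± 0.03.

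HOXC and HOXD each had a border in the annotated span of a gene of group 10, in replicate 2 alone. In that replicate a border lay inside HOXC10, with 0.24 before it and 0.83 after it. Another lay inside the annotated span of HOXD10, with 0.41 before it and 1.09 after it. That one was at 2:176974505, just past the end of HOXD11 at 2:176974482, and the canonical transcript of HOXD10 was not read. Replicate 1 had a border in neither gene. The other border of each cluster was a step down in each replicate, and by annotated span it lay in genes of different groups. In replicates 1 and 2 it was within the span of HOXC4 at 54426783 and 54435352, 8.57 kb apart. In HOXD it was within the span of HOXD3 at 2:177035458 and 2:177011234. These 2 positions lay on either side of HOXD4, which was enriched over 100% in replicate 1 and 0% in replicate 2. The difference in groups rests on the long annotated spans of HOXC4 and HOXD3. In replicate 2 the HOXC border lay before the canonical transcript of HOXC4, which starts at 54447619. The HOXD border of that replicate likewise lay before HOXD4, which starts at 2:177016278. At the head end, the canonical transcript of HOXC4 was at -0.14 and 0.01 in replicates 1 and 2, and HOXD1 was at -0.15 and 0.01. Among the microRNA genes of the miR-196 family, MIR196A2 in HOXC lay at 0.62 ± 0.30, the value of HOXC9. MIR196B in HOXA lay at 1.10 ± 0.18, the value of HOXA10, and MIR196A1 in HOXB at 1.07 ± 0.15, that of HOXB9. All 3 were enriched in both replicates, although the HOXA and HOXB clusters as a whole had means below 0. Each only carries the value of the segment around it. Of all protein-coding genes 12.3% were covered to 100%, and the share of all microRNA genes was not computed. Outside this family, MIR615 in HOXC was enriched in replicate 2 alone. MIR10B in HOXD, at 0.46 and 0.01, was enriched in replicate 1 alone.

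**Figure D5:**
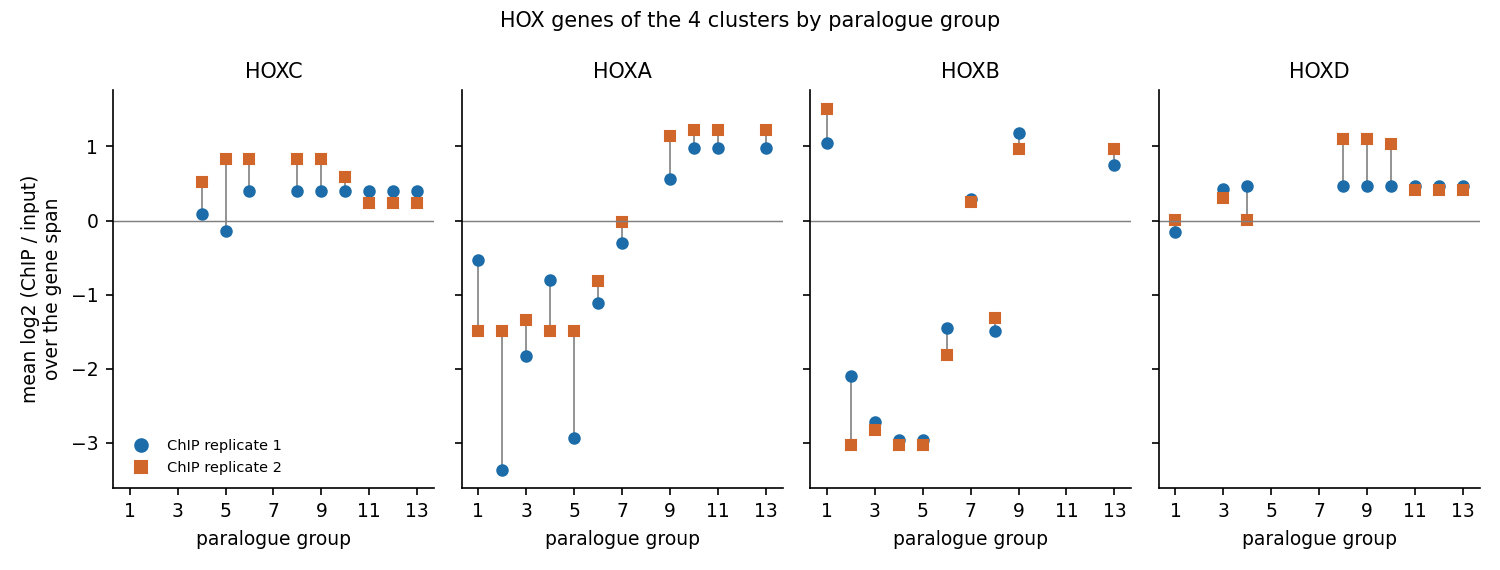
Mean log2 ratio of ChIP over input across each HOX gene span by paralogue group in the HOXC, HOXA, HOXB and HOXD clusters, with replicate 1 as circles, replicate 2 as squares and a line joining them. HOXC and HOXD genes lie between -0.15 and 1.09, while the HOXA and HOXB genes of groups 1 to 6, except HOXB1, lie below 0.

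Genes whose products work with HOX proteins or on HOX chromatin held few covered bases. Of 24 such genes, 0 were covered over at least 50%, where 7 of 9 HOXC genes and 19.2% of all protein-coding genes were. No base was covered in 19 of the 24, and in 13560 of all 19517 protein-coding genes. This list and the fibroblast list below were chosen with earlier results of these data known, so their counts are descriptions only. Below 0 in both replicates lay 21 of the 24, and 13611 of all 19517 protein-coding genes. The highest were the homeodomain cofactor genes PKNOX2 at 0.04 ± 0.21 and PBX4 at -0.0045 ± 0.23 (SD, n = 2). The lowest were WDR5, a subunit of histone H3 lysine methyltransferase complexes, at -2.85 ± 0.03, and the Polycomb gene RING1 at -2.30 ± 0.24. Of 14 genes used as fibroblast markers 0 were covered over at least 50%, with COL1A1 and COL6A1 lowest at -3.13 ± 0.30 and -3.04 ± 0.35 and S100A4 and POSTN highest at 0.33 ± 0.39 and 0.06 ± 0.44.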

How the data were processed

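Per the labels' protocols, sheared formaldehyde-fixed chromatin of IMR90 cells was immunoprecipitated for macroH2A1. The submitters' processing notes name CASAVA 1.7 and hg19; how reads were aligned, segmented and scaled is not given in the sources used here. The deposited segmentations are separate for the replicates. The authors give each segment a log2 ratio of ChIP over input. Base 2 was inferred, since assayed bases then averaged a linear ratio of 1.01 in replicate 1 and 0.995 in replicate 2. The authors also deposited a −log10 p-value per segment, whose test is not given. A segment below 0 can carry a high value (2.58 at -0.14 in replicate 1), so it was used only for segments above 0. Values are means over long segments, relative within a library, and no read counts were given, so depth is unknown.

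Segments were intersected with GENCODE release 44 mapped to GRCh37 (Python 3.11.15, numpy 2.4.6), leaving out chromosome Y and the mitochondrion. Of 20098 protein-coding genes, 19517 had at least 50% of their span assayed in both replicates. Gene values are means over bases, and shared pieces within 1000 bases were joined. The interval arithmetic was checked against a base-by-base calculation on 200 simulated intervals. Members and gene lists were chosen with earlier results of these data known. Named were all 9 HOXC genes, the noncoding genes of the cluster that have a symbol, coding genes of the flanks, HOX paralogues, and the 2 highest and 2 lowest of each list. The alternatives were other thresholds, whole segments, canonical transcripts, coding sequence, a 5-kb start window, medians, other flanks and each replicate alone.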

Additional observations from a re-analysis of the deposited data

How the results depend on the processing

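The count of HOXC genes covered over at least 50%, 7, was 4 with a −log10 p of at least 5 and 0 with a log2 ratio above 0.5. The covered share of the cluster, 80.3%, was 39.1% and 0 in these settings. Neither changed with no limit on p or with whole segments, and the count was 7 by canonical transcript or coding sequence and 8 in a 5-kb window at the start site. In single replicates the count was 7 to 9, the share 80.3% to 87.7%, the cluster mean 0.30 to 0.48, the flank mean 0.07 to 0.08 and the cluster minus flanks 0.23 to 0.41. The flank mean of 0.07 was -0.068 as a median over bases, 0.13 with flanks of 50 kb and 0.12 with flanks of 200 kb. The log2 ratio of HOXC4 was 0.30 over its span and -0.068 by canonical transcript and by coding sequence, and 0.62 in the 5-kb window at its annotated start. That of HOXC5 was -0.14 to 0.83 in single replicates. No paired analysis was possible because the inputs have no values of their own here and enter only through the authors' ratio. Shares of all protein-coding genes are given here for the main setting alone, so the other counts have no such share beside them. Unknown depth and long segments limit what can be said of single start sites.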

Other observations

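The domain that holds the HOXC genes began 2.28 kb beyond CALCOCO1 (12:54102301-54121529), a coactivator gene chosen for naming after its value was seen, which lay at -1.61 in replicate 1 and -1.38 in replicate 2. At that end the replicates placed the border close together, at 54123806 and 54122875. CISTR, a long noncoding RNA gene inside the domain (12:54140121-54151011), also named after its value was seen, lay at 0.97 and 1.33, above the 0.40 and 0.83 of the central HOXC genes.

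By annotated span, the replicates had opposite signs in 7.50% of protein-coding genes, and HOXC5 was the 1 of the 9 HOXC genes for which they did. The canonical transcript of HOXC4 also had opposite signs, at -0.14 and 0.01.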
